A study of Homo sapiens with 5 samples.

Results

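The miRNAs of the imprinted DLK1-DIO3 domain on human chromosome 14 were followed in MCF10A cells, an immortalized, non-tumorigenic line of human mammary epithelial cells. Members were the human miRNA names of this locus, 48 in all, with either arm of each hairpin. They gave 91 of the 2565 human miRNA rows in the small RNA count tables. The 2 detached libraries came from MCF10A held in suspension over a coat of 2% poly-HEMA, to which cells do not adhere, and the 3 attached libraries from MCF10A on uncoated plates. Both groups were kept in the same medium, DMEM/F12 with donor horse serum, epidermal growth factor, insulin, cholera toxin, hydrocortisone, penicillin and streptomycin, and the labels name no genetic change in either. Culture lasted 24 h in either group by the series text, whereas the time label is 24 h for detached and 0 h for attached libraries. Nothing in the labels says that replicates were separate cultures, so the spread behind each p-value is that between libraries and may be technical only.

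An imprinted gene is expressed mainly from the copy inherited from one parent. In the DLK1-DIO3 domain the paternal chromosome expresses the protein-coding genes DLK1, RTL1 and DIO3, and the maternal chromosome expresses the noncoding RNA MEG3 and, downstream of it, C/D box snoRNAs and a large array of miRNA hairpins. These miRNAs are known mainly from brain, placenta and embryonic tissue, and several in the 5' part lie antisense to the coding sequence of RTL1. Allele of origin cannot be read from small RNA counts, so imprinting itself was not measured here.

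In the GENCODE 29 annotation (GRCh38), the 48 names correspond to 51 hairpins on the plus strand of chromosome 14, from 100852390 to 101066801, a span of 214.4 kb. They fall into a 5' group of 10 names, from MIR770 in an exon of MEG3 to MIR370 in an intron of MEG8, and a 3' group of 38 names, from MIR379 to MIR656, separated by 110.9 kb. MIR431, MIR433, MIR127, MIR432 and MIR136 overlap an exon of RTL1 on the opposite strand. In the 3' group, 12 names lie in introns of MEG8, 5 in introns of MIR381HG and 6 in MEG9, all of them long noncoding RNAs. A further 6 names lie between MEG8 and MIR381HG and 9 between MIR381HG and MEG9.

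Of the 91 rows, 90 had a mature sequence in the RefSeq table (GRCh38.p14), all but miR-668-3p. The sequences below belong to the most counted rows, to the rows with the smallest p in the comparison of detached with attached cells, and to miR-127-3p, which had no count. They run 5' to 3', with the seed (bases 2 to 8, which pair with target mRNAs) in capitals.
miR-376c-3p: aACAUAGAggaaauuccacgu
miR-376a-3p: aUCAUAGAggaaaauccacgu
miR-376b-3p: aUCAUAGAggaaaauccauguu
miR-376a-5p: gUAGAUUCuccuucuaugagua
miR-376b-5p: cGUGGAUAuuccuucuauguuu
miR-369-3p: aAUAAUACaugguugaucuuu
miR-379-5p: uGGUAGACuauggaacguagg
miR-381-3p: uAUACAAGggcaagcucucugu
miR-654-3p: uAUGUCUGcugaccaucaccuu
miR-494-3p: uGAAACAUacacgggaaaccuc
miR-495-3p: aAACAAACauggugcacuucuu
miR-409-3p: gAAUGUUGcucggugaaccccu
miR-409-5p: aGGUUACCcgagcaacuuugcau
miR-382-5p: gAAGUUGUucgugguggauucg
miR-134-5p: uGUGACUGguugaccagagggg
miR-485-5p: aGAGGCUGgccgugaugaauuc
miR-485-3p: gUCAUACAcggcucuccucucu
miR-655-3p: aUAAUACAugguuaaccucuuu
miR-665: aCCAGGAGgcugaggccccu
miR-127-3p: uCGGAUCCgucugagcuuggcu

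The seed UCAUAGA was common to miR-376a-3p and miR-376b-3p, and miR-376c-3p differed from miR-376a-3p within the seed (A2U, with positions counted from the 5' end and the base of miR-376c-3p first). miR-376a-3p and miR-376b-3p differed at 1 position over the length of the shorter one (C19U). How reads that match several names were counted is not given in the sources used here, so the division of counts between these 2 rows is uncertain. The same holds for miR-1185-1-3p and miR-1185-2-3p (U20C), which had 43 and 5 counts in all. It also holds for miR-376c-5p and miR-376b-5p (G1C over the length of the shorter one), with 0 and 62 counts. The seed AUACAAG was common to miR-381-3p, with 519 counts, and miR-300, with no count, and the seed AUGUAAC to miR-379-3p and miR-411-3p, with 87 and 77 counts.

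Counts of the cluster came almost entirely from its 3' group. The 73 rows of the 3' group held 99.2% of the 10307 counts of the cluster over all libraries, and 65 of them had at least 1 count. The 18 rows of the 5' group held 78 counts, of which 61 were miR-665. The other 17 rows of the 5' group held 3 and 1 counts in detached replicates 1 and 2, and 2, 8 and 3 counts in attached replicates 1, 2 and 3, with at most 3 counts of any row in a library. These include the RTL1-antisense miRNAs: miR-127-3p, which in mouse represses Rtl1 by pairing with its mRNA, had 0 counts in all 5 libraries, as had both arms of miR-431 and of miR-433. Over the 5 libraries a count of 0 allows a level of up to 0.0521 per 1000000 human miRNA counts (3 counts of the total). miR-136-5p and miR-136-3p had 3 and 2 counts, all in attached replicate 2.

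**Figure D1:**
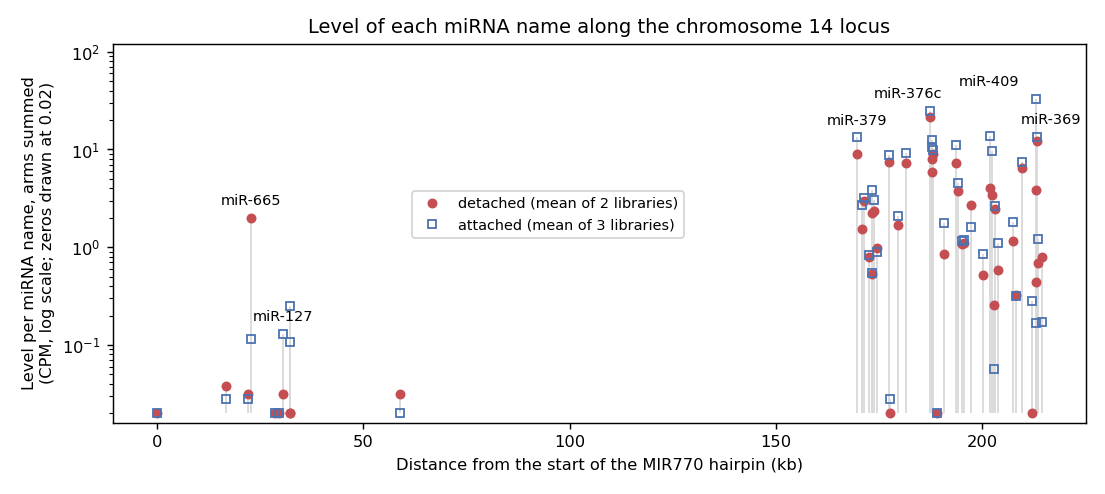
Level of each of the 48 miRNA names by distance in kb from the start of the MIR770 hairpin, as the mean CPM over libraries with arms summed, on a log axis on which zeros are drawn at 0.02 (filled circles, detached, 2 libraries; open squares, attached, 3 libraries). In the 5' group, the names other than miR-665 together average 0.134 CPM in detached and 0.548 CPM in attached libraries. The 3' group, 110.9 kb further on, reaches above 10 CPM.

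In all, 58 of the 91 rows reached 3 counts in at least 1 library, 16 had no count in any library and 37 passed the low-count filter and were tested. The tested rows comprised 25 of 3p arms, 10 of 5p arms and 2 named without an arm. The unit of level is CPM, a row's counts per 1000000 human miRNA counts after TMM scaling of the library total. Levels were low: the most abundant row, miR-376c-3p, averaged 23.4 CPM over the 5 libraries and ranked 273 among the 697 tested human miRNA rows, and the tested cluster rows had a median mean level of 1.92 CPM against 10.9 CPM for all tested rows. The most abundant row held 13.7% and the 12 most counted rows together 71.8% of the cluster's counts. Library totals of human miRNA counts were 15793173 and 10533740 for detached replicates 1 and 2, and 12153778, 8805009 and 10321861 for attached replicates 1, 2 and 3.

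Attached replicate 2 stood apart from the other libraries before any comparison. Across the 37 tested cluster rows, its Pearson correlations with the other 4 libraries in log2(CPM + 0.5) were 0.571 to 0.699, against 0.824 to 0.913 among those 4. It was the lowest of the 5 libraries in 18 of the 37 rows and the highest in 9, against 41.2% and 33.4% of all 697 tested rows. Of the 37 rows, 6 had 0 counts in it. The counts of calls and directions below are therefore also given without it. It was left out because it deviated most in these data, so its removal by itself narrows the attached group, and adjusted p-values without it may be too small.

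Epithelial marker miRNAs fitted the label of the cells. All 7 epithelial markers, miR-205-5p and the miR-200 family among them, were detected in every library, at summed levels of 87934 and 97400 CPM in detached and 56572 to 103558 CPM in attached libraries. Fibroblast and mesenchymal markers summed to 58.5 and 14.9 CPM in detached and 5.23, 16.5 and 4.33 CPM in attached libraries. Most of this was miR-143-3p and miR-145-5p, with no other marker of this list above 1.02 CPM in any library. Of the 7 fibroblast and mesenchymal markers, 5 reached 3 counts in some library, and miR-214-3p and miR-10b-5p had at most 2 counts in any. Neural markers summed to 353 and 334 CPM in detached and 375 to 489 CPM in attached libraries, nearly all of it miR-128-3p, while miR-219a-5p was at 0 in all 5. Blood markers summed to 21.8 and 17.3 CPM in detached and 7.59 to 16.2 CPM in attached libraries, and placental and pluripotent markers to at most 0.510 CPM in any, with 3 of those 6 at 0 throughout. The part of other cell types in the results below was not tested.

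Summed over all 91 rows, the cluster's level was lower in both detached than in all 3 attached libraries. The sum was 143 and 131 CPM in detached replicates 1 and 2, and 244, 221 and 176 CPM in attached replicates 1, 2 and 3. The groups did not overlap, and the means were 137 ± 8.40 CPM in detached (SD, n = 2) and 214 ± 34.6 CPM in attached cells (SD, n = 3), a log2 ratio of -0.64. No test was made of this sum. In attached replicate 2 it included 73.6 CPM of miR-409-3p, 24.0 CPM of miR-382-5p and 16.4 CPM of miR-134-5p. Each of these rows was at most 9.41 CPM in the other libraries. Without these rows the sum in attached replicate 2 falls below both detached sums, while attached replicates 1 and 3 stay above them. The lack of overlap with attached replicate 2 thus rests on these rows. In bulk libraries such as these, fewer cells expressing the locus and less RNA per cell cannot be told apart.

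The size of this difference moved with the scaling. As a plain share of human miRNA counts, the cluster held 0.0142% and 0.0164% in the detached libraries, against 0.0231%, 0.0165% and 0.0201% in attached replicates 1, 2 and 3, a log2 ratio of -0.38. On that scale detached replicate 2 (exact 95% binomial interval 0.0156 to 0.0172%) and attached replicate 2 (0.0157 to 0.0174%) could not be distinguished by counting error, which is the only error such an interval covers. Leaving out each library in turn gave log2 ratios of the scaled sums from -0.76 to -0.53, with -0.61 without attached replicate 2.

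**Figure D2:**
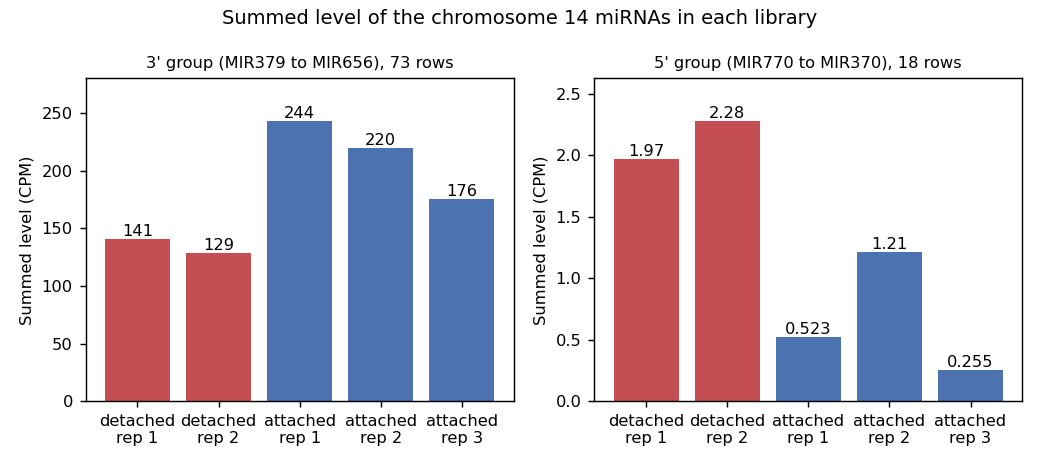
Summed level in CPM (vertical axes) of the 73 rows of the 3' group and of the 18 rows of the 5' group in each library, with detached libraries in red and attached libraries in blue. The 3' group reaches 141 and 129 CPM in detached and 176 to 244 CPM in attached libraries, and the 5' group at most 2.28 CPM.

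By segment, the 2 at the far end of the locus were lower in detached cells without overlap between groups. The 5' group was higher without overlap, through miR-665 alone. This group summed to 1.97 and 2.28 CPM in detached and 0.523, 1.21 and 0.255 CPM in attached replicates 1, 2 and 3. Without miR-665 the sums overlapped, at 0.191 and 0.0761 CPM in detached and 0.174, 1.21 and 0.255 CPM in attached libraries. The 6 names in MEG9, miR-541, miR-409, miR-412, miR-369, miR-410 and miR-656, summed to 22.1 and 13.9 CPM in detached and 36.6, 80.6 and 27.1 CPM in attached replicates 1, 2 and 3. The 9 names between MIR381HG and MEG9 summed to 18.8 and 19.7 CPM in detached and 32.1, 53.4 and 26.8 CPM in attached libraries. These 2 segments hold miR-409-3p, miR-382-5p and miR-134-5p. Without those rows attached replicate 2 would not lie above both detached libraries in either segment. In the other 3 segments of the 3' group the values overlapped, in each through attached replicate 2 alone, so that leaving it aside the detached values lay below in all 5 segments of the 3' group. The MEG8 introns gave 33.6 and 40.1 CPM in detached and 61.1, 34.1 and 50.3 CPM in attached libraries. The block with the miR-376 genes, between MEG8 and MIR381HG, gave 50.8 and 39.4 CPM in detached and 85.7, 39.6 and 53.2 CPM in attached libraries. The MIR381HG introns gave 16.0 and 15.9 CPM in detached and 28.0, 12.1 and 18.4 CPM in attached libraries. Whether segments differed from each other was not tested.

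Row by row, the fit over all human miRNAs called no cluster row. With edgeR's quasi-likelihood test and Benjamini-Hochberg adjustment over 697 rows, 0 of 37 cluster rows passed an adjusted p under 0.05 in either direction, where 0% of all tested rows passed in each. At an unadjusted p under 0.05, 1 cluster row was higher (background 4.73% of tested rows) and 2 were lower (background 2.3%). limma-voom and DESeq2 likewise called 0 cluster rows, where DESeq2 called 1.58% of all tested rows higher and 0.143% lower. A single cluster row, miR-665, was called higher by limma-voom with library quality weights (background 1.87%) and by an unfiltered edgeR fit (background 0.73% higher and 0.261% lower). miR-665 reached 10 counts in detached libraries only, so it entered the filtered fits through the group where it was higher. The reverse held for miR-376a-5p, 1 of the 2 rows lower at an unadjusted p under 0.05, which reached 10 counts in attached libraries only. Without attached replicate 2, miR-665 was again the 1 cluster row called, by edgeR (background 3.24% higher and 0.147% lower) and by DESeq2 (background 3.83% higher and 0.442% lower). At an unadjusted p under 0.05, edgeR without that library had 2 cluster rows higher (background 9.57%) and 4 lower (background 3.53%).

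The direction of the 37 estimates was nevertheless uneven. Of the 37 rows, 31 had negative log2 fold changes, 83.8% against 51.2% of all tested rows, and their median was -0.38 against -0.04 for all. Without attached replicate 2, 31 of 36 were negative, with a median of -0.68 against -0.06. The pattern drew on attached replicate 1: without that library 20 of 34 were negative, with a median of -0.05 against 0.05 for all tested rows. With library totals in place of TMM, which moved the median of all rows to 0.20, 25 of 37 were negative and 31 of 37 lay below that median.

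In 10 of the 37 rows, 27.0%, the detached libraries lay below all 3 attached ones, against 14.2% of all tested rows. The 10 rows were miR-376a-5p, miR-654-3p, miR-1185-1-3p, miR-381-3p, both arms of miR-382 and of miR-409, miR-134-5p and miR-485-3p. Of these, miR-376a-5p and miR-1185-1-3p reached 10 counts in attached libraries only, and miR-409-5p and miR-485-3p in just 1 detached library. Rows that passed the filter through the attached group add to this count and to the 31 negative estimates. The detached libraries lay above in 2 rows, miR-665 and miR-655-3p, against 14.9% of all tested rows. Leaving attached replicate 2 aside, detached libraries lay below in 19 of 37 rows, against 21.5% of all tested rows, and above in 3, against 20.4%. The 37 rows come from one locus and are not independent of each other.

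Of the 38 cluster rows with counts that did not pass the low-count filter, the detached libraries lay above the attached ones in 3, against 9.5% of the 1221 human miRNA rows of that kind, and below in 3, against 5.73%. Above were miR-656-3p, with 7 and 14 counts in detached and 2, 0 and 4 counts in attached replicates 1, 2 and 3, miR-412-5p, with 8 and 5 counts in detached and 3, 1 and 1 in attached libraries, and miR-495-5p, with 1 count in each detached and 0 in each attached library. Below were miR-654-5p, with 1 and 0 counts in detached and 7, 6 and 3 in attached libraries, miR-494-5p, with 0 and 0 counts in detached and 1, 3 and 1 in attached libraries, and miR-432-3p, with 0 counts in each detached and 1 in each attached library. In the unfiltered edgeR fit none of the 6 passed, with adjusted p from 0.231 (miR-654-5p) to 0.857.

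**Figure D3:**
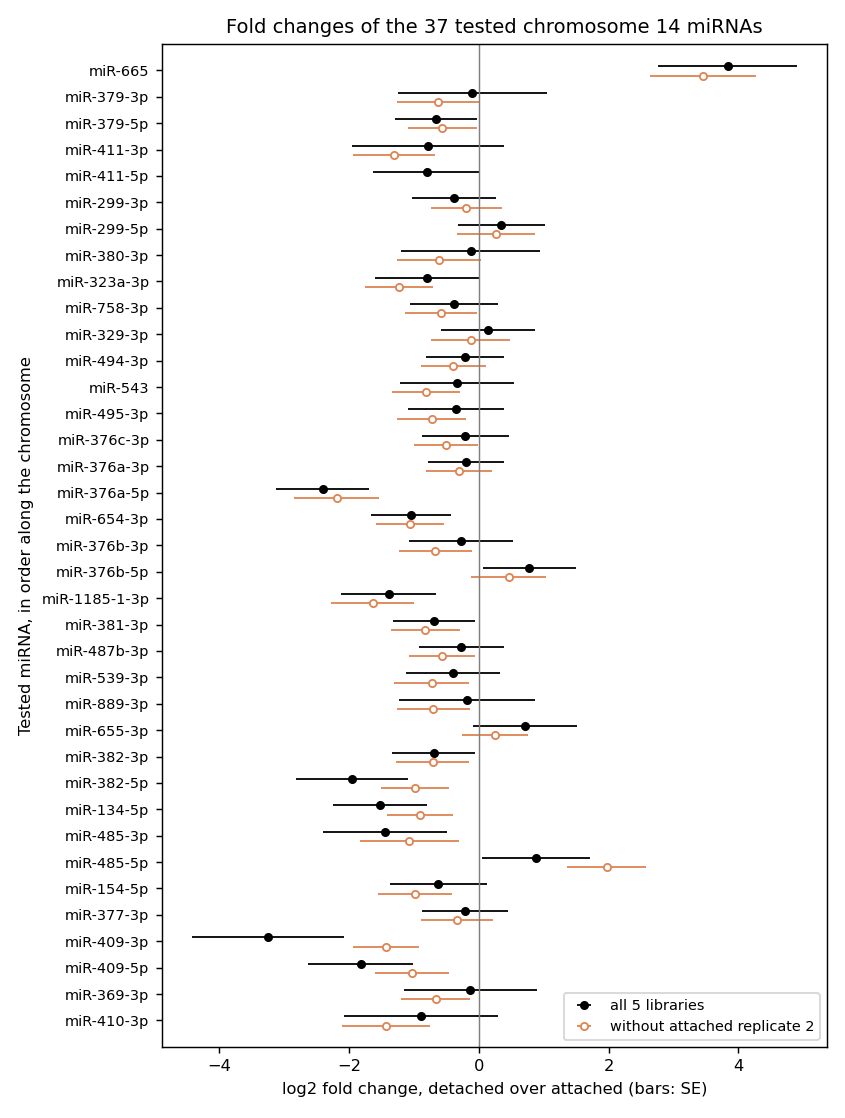
log2 fold change of detached over attached cells for the 37 tested rows, from top to bottom in their order along the chromosome, with bars of 1 SE (filled, all 5 libraries; open, without attached replicate 2; miR-411-5p was not tested in that fit). In the fit of all 5 libraries 31 estimates lie left of 0, and miR-665 lies farthest to the right at 3.84.

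The miR-376 family is known for A-to-I RNA editing within the seed in brain, which changes its targets, and its rows made up 24.8% of the cluster's counts. miR-376c-3p measured 23.5 and 19.4 CPM in detached and 36.5, 13.5 and 24.2 CPM in attached replicates 1, 2 and 3. The attached values lie on both sides of the detached ones, and edgeR estimated -0.21 on the log2 scale (SE 0.67, adjusted p 0.949). miR-376a-3p averaged 7.30 ± 1.29 CPM in detached (SD, n = 2) and 8.38 ± 1.54 CPM in attached cells (SD, n = 3), and miR-376b-3p averaged 7.58 ± 3.51 CPM in detached (SD, n = 2) and 9.13 ± 6.80 CPM in attached cells (SD, n = 3). Both differences were smaller than the spread between libraries.

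The 5p arms of this family had estimates of opposite sign. miR-376a-5p, cut from the hairpin of MIR376A1 (101040782 to 101040849), had 5 and 3 counts in detached and 16, 13 and 14 counts in attached replicates 1, 2 and 3. It thus passed the low-count filter through the attached group, where it was higher. The groups do not overlap, at 0.273 ± 0.0637 CPM in detached (SD, n = 2) and 1.52 ± 0.406 CPM in attached cells (SD, n = 3). Its log2 fold change was -2.40 (SE 0.72, edgeR unadjusted p 0.00999 and adjusted p 0.435), and -2.19 (SE 0.66, adjusted p 0.0907) without attached replicate 2. miR-376b-5p had 22 and 16 counts in detached and 14, 2 and 8 counts in attached libraries, for an estimate of 0.78 (log2, SE 0.71, edgeR adjusted p 0.807), or 1.33 without attached replicate 1 and 0.46 without attached replicate 2. In CPM its groups met only at attached replicate 1, since detached libraries had 1.40 and 1.22 CPM and that library 1.22 CPM. The counts of miR-376b-5p may include reads of the near-identical miR-376c-5p.

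Among the abundant 3p rows elsewhere in the 3' group, miR-654-3p did not overlap between groups. It measured 5.67 and 6.01 CPM in detached and 15.5, 11.7 and 8.84 CPM in attached libraries, with an estimate of -1.04 (log2, SE 0.62, edgeR adjusted p 0.735). Its hairpin lies between those of MIR376A2 and MIR376B, whose 3p rows overlapped between groups. miR-381-3p measured 7.26 and 5.93 CPM in detached and 15.4, 8.65 and 7.90 CPM in attached libraries, also without overlap, and its estimate was -0.69 (log2, SE 0.63, edgeR adjusted p 0.807), or -0.34 without attached replicate 1. miR-494-3p overlapped at 6.94 and 7.99 CPM in detached and 10.8, 6.37 and 8.75 CPM in attached libraries. miR-379-5p measured 8.85 and 6.24 CPM in detached and 14.4, 13.5 and 7.90 CPM in attached libraries, so that only attached replicate 3 fell within the detached values. miR-495-3p overlapped as well, at 4.97 and 9.59 CPM in detached and 9.67, 3.79 and 14.2 CPM in attached libraries.

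miR-369-3p, described as a binder of the AU-rich element of TNF mRNA, had its widest spread within the attached group. It measured 16.4 and 7.69 CPM in detached and 22.2, 1.21 and 16.1 CPM in attached replicates 1, 2 and 3. Its log2 fold change was -0.13 (SE 1.02, edgeR adjusted p 0.988) with all 5 libraries and -0.66 (SE 0.53) without attached replicate 2.

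In miR-409, miR-382 and miR-134 the same library stood at the high end. miR-409-3p measured 3.25 and 3.12 CPM in detached and 9.41, 73.6 and 7.82 CPM in attached replicates 1, 2 and 3. The groups do not overlap with or without attached replicate 2, but the log2 fold change was -3.24 (SE 1.17, edgeR adjusted p 0.544) with it and -1.43 (SE 0.51, edgeR adjusted p 0.168) without it. The other arm, miR-409-5p, measured 0.70 and 0.685 CPM in detached and 1.31, 4.70 and 1.53 CPM in attached libraries, in the same order of groups as the 3p arm. miR-382-5p measured 2.55 and 3.65 CPM in detached and 4.96, 24.0 and 7.22 CPM in attached libraries. Its log2 fold change was -1.95 (SE 0.86, edgeR adjusted p 0.654), and -0.98 (SE 0.52) without attached replicate 2.

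miR-134-5p, known from rat neurons as a regulator of dendritic spine size through LIMK1, measured 3.95 and 2.74 CPM in detached and 6.27, 16.4 and 6.29 CPM in attached libraries. Both detached libraries lie below all attached ones, and the estimate was -1.52 (log2, SE 0.73, edgeR adjusted p 0.699), or -0.90 (SE 0.51) without attached replicate 2. The hairpins of miR-382 and miR-134 begin within 1 kb of each other, at 101054306 and 101054687.

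**Figure D4:**
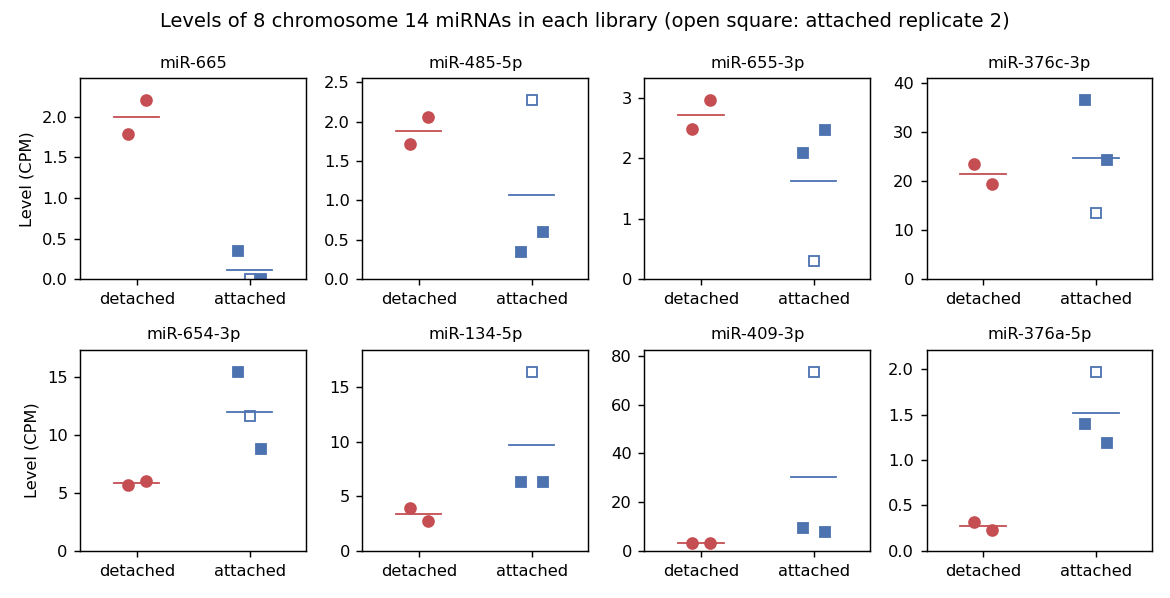
Level in CPM (vertical axes, each from 0) of 8 cluster rows in each library, with detached in red circles, attached in blue squares, attached replicate 2 as an open square and horizontal lines for group means. Attached replicate 2 is the highest library for miR-409-3p, at 73.6 CPM, and the lowest for miR-376c-3p, at 13.5 CPM.

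Higher estimates in detached cells were few. miR-665, of the 5' group, had 28 and 29 counts in detached and 4, 0 and 0 counts in attached replicates 1, 2 and 3, or 1.78 and 2.21 CPM against 0.348, 0 and 0 CPM. The groups do not overlap, and its log2 fold change was 3.84 (SE 1.07, edgeR unadjusted p 0.00669 and adjusted p 0.380), resting on 4 attached counts. Without attached replicate 2 its log2 fold change was 3.45 (SE 0.82, edgeR adjusted p 0.0283), and DESeq2 without that library gave 3.56 (adjusted p 0.0413). Without attached replicate 1, the only attached library with a count, the fitted value was 7.56 (edgeR adjusted p 0.278). That value depends on the prior count, because the attached libraries left in the fit are at 0. Without attached replicate 3 the fitted value was 3.20 (edgeR adjusted p 0.446). Its hairpin (100875033 to 100875104) follows that of MIR337, whose arms had 1 count each in all. At 70% G and C its mature sequence was the richest in these bases among the tested cluster rows.

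The arms of miR-485 had estimates of opposite sign. miR-485-5p had 27 and 27 counts in detached and 4, 15 and 7 counts in attached replicates 1, 2 and 3, while miR-485-3p had 16 and 1 counts in detached and 16, 15 and 12 counts in attached libraries. The 3p estimate was -1.44 (log2, SE 0.96, edgeR adjusted p 0.765), and it was -4.09 without detached replicate 1 and -0.52 without detached replicate 2. The 3p arm held 37.2% and 3.57% of the hairpin's counts in detached and 80%, 50% and 63.2% in attached libraries. For miR-485-5p the log2 fold change was 0.88 (SE 0.84, edgeR adjusted p 0.807), and 1.97 (SE 0.60, edgeR adjusted p 0.0911) without attached replicate 2, 0.42 without attached replicate 1 and 0.53 without attached replicate 3. The change of arm share itself was not tested. miR-655-3p measured 2.48 and 2.97 CPM in detached and 2.09, 0.304 and 2.46 CPM in attached libraries, with no overlap by a small margin and an estimate of 0.71 (log2, SE 0.80, edgeR adjusted p 0.857), or 0.25 without attached replicate 2 and 1.1 without attached replicate 3. miR-299-5p, with 1.46 and 1.22 CPM in detached and 0.610, 0.911 and 1.61 CPM in attached libraries, overlapped.

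Most hairpins kept a fixed arm. There were 28 names with both arms listed and at least 50 counts in all. The 3p arm held more counts in 23 and the 5p arm in 5. The same arm led in all 5 libraries in 21. miR-380, miR-889 and miR-410 missed this only because both arms had 0 counts in attached replicate 2. miR-376c had 1417 counts on its 3p arm and 0 on its 5p arm, and miR-655 had 133 and 0. The 0 of miR-376c-5p is uncertain, since its reads may have been counted as miR-376b-5p. miR-134, miR-379, miR-382 and miR-154 were 5p-dominant, with 0.845%, 13.3%, 15.8% and 31.5% of counts on the 3p arm. For miR-411 the leading arm changed between libraries: its 3p arm held 69.2% and 42.1% in detached, and 79.6%, 0% and 66.7% in attached replicates 1, 2 and 3. miR-379-3p, which shares the seed of miR-411-3p, was also at 0 counts in attached replicate 2, against 9 to 39 counts in the other libraries.

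The deviation of attached replicate 2 varied with base composition across the cluster rows. Over the 37 tested rows, the difference of attached replicate 2 from the mean of attached replicates 1 and 3 in log2(CPM + 0.5) had a Pearson correlation of 0.578 with the G and C content of the mature miRNA (Spearman 0.571). The rows share one library and partly each other's sequence, so this is a description. Rows under 40% G and C, 15 in number, had a median difference of -1.51, and the 9 rows at 50% or more a median of 0.71. miR-369-3p, at 23.8% G and C, was lowest with -3.50, and miR-409-3p, at 54.5%, highest with 3.03. Over 603 tested human miRNA rows with a RefSeq sequence the correlation was 0.201, with medians of -0.97 and -0.03 in the same 2 classes. Of those 9 rows, miR-758-3p, miR-154-5p, miR-323a-3p and miR-665 lay below 0, at -0.54, -1.11, -1.85 and -0.38. The part of base composition in the fold changes was not tested.

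**Figure D5:**
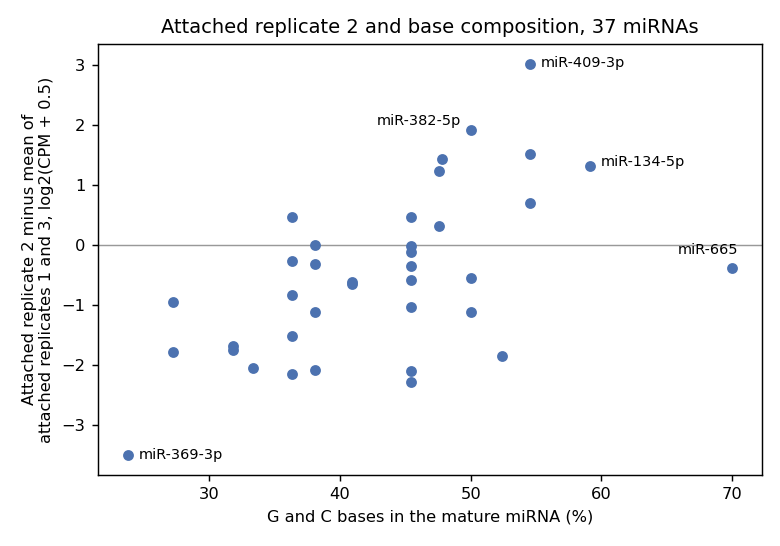
Difference between attached replicate 2 and the mean of attached replicates 1 and 3, in log2(CPM + 0.5), against the percentage of G and C bases in the mature miRNA, with 1 point for each of the 37 tested rows. Rows poor in G and C lie mostly below 0, down to -3.50 for miR-369-3p, and miR-409-3p lies highest at 3.03.

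Other small RNAs of the locus were scarce. The C/D box snoRNAs SNORD113 and SNORD114, which are cut from introns between the 5' and the 3' group, are represented by 9 and 27 rows, with 15 and 117 counts in all, and SNORD112 had 0 counts. SNORD113 rows summed to 8 and 5 counts in detached and 2, 0 and 0 counts in attached replicates 1, 2 and 3. SNORD114 rows ran the other way and summed to 5 and 11 counts in detached and 13, 32 and 56 counts in attached replicates 1, 2 and 3. Per 1000000 named counts the SNORD114 sums are 0.312 and 1.01 in detached and 1.05, 3.58 and 5.35 in attached libraries, without overlap and with no test made. The size selection of 18 to 24 nt passes only fragments of such RNAs. SNORD116 rows of the imprinted chromosome 15 locus summed to 9.56 and 22.1 per 1000000 in detached and 12.7 to 20.8 in attached libraries.

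Rows of other imprinted loci are given for comparison, and no test of a difference from the chromosome 14 rows was made. Of 37 names of the placental chromosome 19 cluster, 3 rows were tested and 0 were called by edgeR, and the cluster summed to 5.35 and 4.87 CPM in detached and 8.10, 3.19 and 6.71 CPM in attached replicates 1, 2 and 3. The miR-335 arms, hosted by MEST, summed to 248 and 345 CPM in detached and 338, 851 and 351 CPM in attached libraries. The miR-296 arms of the GNAS locus summed to 239 and 301 CPM in detached and 271, 129 and 199 CPM in attached libraries. miR-675-5p, cut from the maternally expressed H19, had 15 and 18 counts in detached and 7, 1 and 2 counts in attached libraries, for an estimate of 1.80 (log2, SE 0.79, edgeR adjusted p 0.654). None of the 8 tested rows in these lists was called by edgeR, against 0% of all tested rows.

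In the authors' deposited table, all 91 cluster rows are listed, 60 have an adjusted p and 0 of these lie under 0.05. The authors' deposited table gives miR-409-3p a log2 fold change of -2.62 (adjusted p 0.204) and miR-665 one of 2.78 (adjusted p 0.583).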

How the data were processed

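Per the labels, RNAs of 18 to 24 nt were cut from a gel after TRIzol extraction of 50 µg of total RNA. Each library's deposited table lists read counts without normalization for 49965 small RNA names. The submitters' processing notes name hg38 and DESeq2 without a role. Aligner and counter, and how multiply matching reads were handled, are not stated there or in the labels. The authors' deposited comparison table gives log2 fold changes and adjusted p-values, per the file header, and 5 further columns of per-sample values in it were not used.

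The cluster rows were found by exact name, and the members and lists were chosen with earlier results of these data known. The 2565 human miRNA rows entered edgeR 4.0.16, run in R 4.3.3 (quasi-likelihood F test, TMM scaling, two-sided). The edgeR filterByExpr step, at 10 counts per library and 15 in total, left 697 rows. A call is a Benjamini-Hochberg adjusted p below 0.05. The SE was taken as |log2 fold change| over the root of F. Rows named with values were the 12 most abundant tested rows, the 5 with the smallest p in each direction, their other arms and hairpins with both arms tested. miR-127-3p, miR-323a-3p, the other 5' group names, the rows below the filter and the arm examples outside this rule were added once values were known. The alternatives were DESeq2 1.42.0, limma-voom 3.58.1 with and without quality weights, other scalings and filters, all named rows, a replicate block and leaving out each library. Replicates were no duplicates: chi-square over its degrees of freedom was 606 to 3834. Hairpin positions are 1-based, from GENCODE 29. The counts that set attached replicate 2 aside and the base composition values were added after seeing the data.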

Additional observations from a re-analysis of the deposited data

How the results depend on the processing

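edgeR called 0 human miRNA rows in either direction in its fit of all 5 libraries, and 0 cluster rows. DESeq2 called 11 human miRNA rows higher and 1 lower, limma-voom with quality weights 13 and 0, unfiltered edgeR 14 and 5, and DESeq2 without attached replicate 2 called 26 and 3. Leaving out 1 library at a time in edgeR gave 0 to 22 higher and 0 to 1 lower, with all calls in the fit without attached replicate 2. Cluster rows called higher numbered 1 with quality weights, in unfiltered edgeR, in DESeq2 without attached replicate 2 and, over the leave-one-out fits, 0 to 1, each time miR-665. No cluster row was called lower in any alternative run. The median log2 fold change of the tested cluster rows was negative throughout, from -0.68 (without attached replicate 2) to -0.048 (without attached replicate 1), and -0.65 in DESeq2 without attached replicate 2. The log2 ratio of the summed level moved only with library totals, to -0.38. Counting a row as detected gave 36 rows at 1 count in every library and 37 at 10 counts in 2 libraries, against 58.

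Sign changes touched named rows with negative estimates, none of them called in any fit. limma-voom gave 0.53 for miR-369-3p, 0.98 for miR-379-3p and 0.20 for miR-411-3p, and quality weights 0.053 for miR-379-3p. Library totals gave 0.018 for miR-494-3p, 0.018 for miR-376a-3p and 0.10 for miR-379-3p. Over the leave-one-out fits the log2 fold change ranged from -0.50 to 0.18 for miR-376c-3p, from -0.74 to 0.47 for miR-369-3p, from -0.80 to 0.47 for miR-376b-3p, from -0.62 to 1.61 for miR-379-3p, from -1.30 to 0.63 for miR-411-3p, from -0.86 to 0.10 for miR-495-3p, from -0.82 to 0.054 for miR-299-3p and from -0.34 to 0.026 for miR-376a-3p. The cause was not tested. The replicate block gave 1.02 for miR-369-3p, 0.17 for miR-495-3p and 0.61 for miR-379-3p, and called 0 rows. The labels do not say that same-numbered libraries share a culture, so the numbers were not taken to pair the samples. Correlations of their deviations (-0.23 and -0.21) cannot decide this, because the deviations of 2 detached libraries from their mean mirror each other. The filter at 100 CPM left no cluster row. Depth limits the cluster: the median tested row averaged 1.92 CPM, and 3 counts correspond to 0.190 to 0.341 CPM before scaling.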
